A study of Homo sapiens with 9 samples.

Results

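The 40 genes described here copy DNA and divide cells. They were chosen by name from 57500 genes that the count files list. They comprise 19 genes of the G1/S transition and of replication, 18 genes of G2 and mitosis and the 3 D-type cyclins. The RNA came from HEK293T cells, a transformed line of human embryonic kidney cells. The cells were kept for 5 h with 10 µM HBC530, with 10 µM MsOc3HBC or with the vehicle DMSO, and each treatment had 3 biological replicates. HBC530 is a dye that the Pepper RNA aptamer binds without a covalent bond. MsOc3HBC is a relative of the same dye with a mesyloxy-propyl handle that can alkylate a guanine. The study sequenced this RNA to see whether the reactive ligand also touches endogenous mRNAs. The question for these genes was whether transcripts that follow proliferation differed after 5 h.

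A dividing cell reads these genes in 2 waves. Late in G1, D-type and E-type cyclins with their kinases inactivate the retinoblastoma protein RB, and E2F factors then switch on the genes for licensing and copying DNA. After replication a later wave, read through a promoter element called CHR and through CCAAT boxes by MuvB complexes with B-MYB and FOXM1, supplies cyclin B, mitotic kinases and spindle proteins. Many of these transcripts fall again once mitosis ends. HEK293T carries the large T antigen of SV40, which binds RB and p53, so that this line is a poor guide to how those brakes act in other cells. The samples were cultures of 1 line that were not synchronized by any step named in the labels or methods. In such bulk RNA, fewer cells in a phase and less of an mRNA per cell cannot be told apart.

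The libraries held between 28056929 and 62205366 counts on genes. Each member had between 290 and 61772 counts in a library. Replicate 3 of HBC530 and replicate 3 of MsOc3HBC had the fewest counts and stood apart from the other 7 libraries on the first principal component, at 36.94 and 48.79 against -20.28 to -4.29. Of 6 markers of the line, VIM, KRT8, KRT18, NEFL and NEFM had at least 16.7 RPKM (counts scaled by library size and exonic length) in each library, and PAX2 had 0.335 to 0.615. Of 6 markers of other cells, PTPRC, CD3E, PECAM1, ALB and HBB had at most 6 counts in a library, and the collagen gene COL1A1 had 1.97 to 3.58 RPKM. All 40 members passed the filter on low counts in each of the 3 comparisons.

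Most of the 40 members were abundant transcripts. Per exonic length, the DMSO means ran from 237 ± 1.76 RPKM (SD, n = 3) for PCNA, the sliding clamp of DNA polymerase, to 3.39 ± 0.805 RPKM for CENPE, a kinesin of the centromere. The next were MCM7 at 216 ± 15.6 RPKM, a subunit of the replicative helicase, and CDC20 at 142 ± 6.43 RPKM, the activator of the anaphase-promoting complex. The median member of the G1/S list stood at 59.0 RPKM and that of the G2/M list at 22.2 RPKM, against 2.81 RPKM for the 17164 genes tested in all comparisons. The lowest 6 members were CDC25C, CCND2, E2F2, CCND1, CCNE2 and CENPE, between 5.47 and 3.39 RPKM. They stood at percentiles 63.7 to 54.6 of the genes tested. In the order of the DMSO means, 27 of the 39 neighbouring pairs overlapped in their libraries, so that most places in the order are not resolved. PCNA lay above MCM7, and MCM7 above CDC20, in all DMSO libraries.

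No member passed an adjusted p of 0.05 in edgeR's quasi-likelihood test, with either ligand or between the ligands. With HBC530, 0 of 40 members were called, where 0.017% of 17684 genes were. With MsOc3HBC, 0 of 40 were called, where 0.154% of 17514 genes were. Between the ligands, 0 of 40 and 0% of 17397 genes were called. By DESeq2 the counts were 0, 3 and 2 members, and by limma-voom 0 in each comparison. The 3 that DESeq2 called with MsOc3HBC were PLK1, KIF20A and AURKA, all lower, beside 1.04% of the genes with an adjusted p there. The 2 it called between the ligands were PLK1 and MCM5, both lower with MsOc3HBC, beside 0.551% of genes. The limit that the study set, a log2 fold change beyond 1, was reached by none, since the fitted values ran from -0.57 to 0.35. The 95% intervals of all 40 lay within 1 on the log2 scale in each comparison.

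Most intervals of the members lay within 0.5 of 0 on the log2 scale. In HBC530 against DMSO, 37 of 40 members had a 95% interval within 0.5 on the log2 scale, compared with 59.7% of all genes tested. In MsOc3HBC against DMSO this held for 29 of 40 members and 55.9% of genes, and between the ligands for 34 of 40 and 51.0%. The 29 in MsOc3HBC against DMSO took in 17 of 19 G1/S genes and 10 of 18 G2/M genes. The members' standard errors were smaller than those of other genes, with a median of 0.099 against 0.133 for MsOc3HBC against DMSO. A share of members past a threshold on p is for that reason not like the share of all genes. In data simulated on these libraries, edgeR called 30.3% of genes changed by 0.5 on the log2 scale for MsOc3HBC against DMSO, 40.2% for HBC530 and 8.2% between the ligands. Those genes were drawn from all genes tested, so these shares are not those of the members, with their smaller standard errors. A change of 0.5 could thus go uncalled, and how often it would in the members was not tested.

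At an unadjusted p under 0.05 the members were mostly lower with MsOc3HBC. They numbered 17 lower and 1 higher, beside 4.78% of all genes lower and 6.12% higher. With HBC530, 4 members were lower and none higher, where 2.38% of genes were lower and 2.7% higher. Between the ligands, 8 members were lower with MsOc3HBC and 1 was higher, against 4.22% and 3.1% of genes. These counts leaned on single libraries, since the 18 members of MsOc3HBC against DMSO were 10 without MsOc3HBC replicate 1, 8 without DMSO replicate 2 and 22 without MsOc3HBC replicate 3. The 4 of HBC530 were 2 without DMSO replicate 1 and 1 without DMSO replicate 2, and the 9 between the ligands were 4 without MsOc3HBC replicate 1 and 23 without replicate 3 of both ligands. Counted without a test, all 3 MsOc3HBC libraries lay below all 3 DMSO libraries for 20 of 40 members (8.96% of genes) and above them for CCND2 and CENPE, 2 members (9.35% of genes). With HBC530 the groups did not overlap for 10 members, all lower (6.64% of genes lower, 7.17% higher). Against HBC530, MsOc3HBC lay fully below for 12 members and fully above for 1 (8.5 and 6.85% of genes).

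With MsOc3HBC the G2/M genes had a lower median than the G1/S genes. The median log2 fold change of the 18 G2/M genes was -0.24, that of the 19 G1/S genes was -0.05, and that of all genes tested was 0.01. With HBC530 the medians were -0.08 for G2/M, -0.05 for G1/S and 0.00 for all genes. Between the ligands they were -0.13, -0.05 and 0.02. The difference between the G2/M and G1/S medians was -0.19 with MsOc3HBC, -0.025 with HBC530 and -0.08 between the ligands. Without MsOc3HBC replicate 3 it was -0.10, and without DMSO replicate 1 it was -0.08, so that 1 library on either side moved the contrast by more than 1.5 times. The G1/S median itself was -0.14 without either of these libraries. Between the ligands the difference was -0.12 without HBC530 replicate 3 and -0.16 after removal of GC and length trends. With HBC530 the sign turned without DMSO replicate 1 (0.02) and without HBC530 replicate 2 (0.01). No test was made of these medians, and the 2 ligands share their DMSO libraries.

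By library, the G2/M genes were lower under MsOc3HBC in each replicate. Levels by library are given in CPM, counts scaled to the library's total. The median log2 CPM of these genes minus the DMSO mean was -0.27, -0.20 and -0.20 in replicates 1 to 3 of MsOc3HBC. It was -0.07, -0.08 and -0.07 with HBC530 and 0.08, 0.00 and -0.05 with DMSO. The groups of these 9 values did not overlap. For the G1/S genes the medians were -0.13, -0.09 and -0.02 with MsOc3HBC, -0.04, -0.04 and -0.08 with HBC530 and -0.03, 0.01 and 0.00 with DMSO. MsOc3HBC replicate 3 therefore stood among the DMSO libraries for the G1/S genes and beside its own replicates for the G2/M genes. The median of all genes tested lay between 0.00 and 0.01 in size in each library.

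The promoters of both waves carried the letters the background names. Promoters of 300 bases (250 before the start site to 50 after it, RefSeq, GRCh38.p14) were matched for 33 of the 40 members. CHR was searched as TTTGAA or TTCGAA, the CCAAT box as CCAAT and the E2F site as TTTCCCGC, TTTGGCGC, TTTCGCGC or TTTGCCGC, all on both strands and with overlapping matches allowed. CHR letters stood in 9 of 16 G2/M promoters (56.3%) and 2 of 16 G1/S promoters (12.5%), against 16.6% of 27305 promoters. E2F letters stood in 12 of 16 G1/S promoters (75%) and 1 of 16 G2/M promoters (6.25%), against 3.33% of all. CCAAT was found in 13 G2/M and 11 G1/S promoters, against 35.7% of all.

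The sequences of 5 members are shown as examples of the 2 waves. PLK1, CDC20 and KIF20A were among the lowest with MsOc3HBC. MCM2 and E2F1 belong to the earlier wave and had log2 fold changes of -0.27 and -0.05 with MsOc3HBC against DMSO. Capitals mark CHR and CCAAT letters in PLK1, CDC20 and KIF20A and E2F letters in MCM2 and E2F1, and a match is no proof of a bound site. PLK1 lies at chr16:23678639-23678938, plus strand, CDC20 at chr1:43358731-43359030, plus strand, KIF20A at chr5:138178862-138179161, plus strand, MCM2 at chr3:127598161-127598460, plus strand and E2F1 at chr20:33686336-33686635, minus strand.
PLK1: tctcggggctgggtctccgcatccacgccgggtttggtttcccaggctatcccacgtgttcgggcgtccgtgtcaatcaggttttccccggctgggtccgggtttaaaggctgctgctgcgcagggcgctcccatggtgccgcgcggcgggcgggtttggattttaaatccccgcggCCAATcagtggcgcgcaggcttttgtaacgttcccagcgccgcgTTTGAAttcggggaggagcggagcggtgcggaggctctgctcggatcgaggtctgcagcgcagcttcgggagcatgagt
CDC20: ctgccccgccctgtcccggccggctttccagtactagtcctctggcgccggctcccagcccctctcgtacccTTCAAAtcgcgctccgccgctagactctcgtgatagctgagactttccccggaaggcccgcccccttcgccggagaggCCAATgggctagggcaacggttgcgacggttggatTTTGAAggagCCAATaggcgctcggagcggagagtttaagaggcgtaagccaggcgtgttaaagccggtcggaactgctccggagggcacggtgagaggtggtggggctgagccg
KIF20A: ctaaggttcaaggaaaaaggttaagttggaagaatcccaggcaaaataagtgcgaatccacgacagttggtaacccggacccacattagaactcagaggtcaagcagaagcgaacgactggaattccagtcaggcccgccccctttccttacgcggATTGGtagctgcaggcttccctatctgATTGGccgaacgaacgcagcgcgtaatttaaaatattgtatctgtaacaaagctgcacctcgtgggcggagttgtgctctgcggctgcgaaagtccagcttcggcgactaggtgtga
MCM2: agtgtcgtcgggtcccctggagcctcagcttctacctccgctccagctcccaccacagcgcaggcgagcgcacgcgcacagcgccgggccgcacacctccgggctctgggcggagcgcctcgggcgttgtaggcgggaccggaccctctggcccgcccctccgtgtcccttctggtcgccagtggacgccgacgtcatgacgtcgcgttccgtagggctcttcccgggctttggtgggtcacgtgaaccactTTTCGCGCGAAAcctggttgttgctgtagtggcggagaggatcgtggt
E2F1: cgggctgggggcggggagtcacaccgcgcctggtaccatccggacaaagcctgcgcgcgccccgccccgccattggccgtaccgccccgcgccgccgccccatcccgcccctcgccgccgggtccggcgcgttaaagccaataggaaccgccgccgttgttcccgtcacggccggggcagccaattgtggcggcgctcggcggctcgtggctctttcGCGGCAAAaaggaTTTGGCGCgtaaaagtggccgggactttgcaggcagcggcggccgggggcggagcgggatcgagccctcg

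With the start site as base 0, the CHR letters of PLK1 begin at base -29 and its CCAAT box at base -73. In CDC20 the CHR letters begin at bases -178 and -65, with CCAAT boxes at -100 and -55. KIF20A holds CCAAT boxes at -94 and -67 on the opposite strand and no CHR letters as searched. The E2F letters of MCM2 begin at bases 2 and 6 on opposite strands and overlap each other. Among G2/M genes with a promoter, the 9 with CHR letters had a median log2 fold change of -0.20 with MsOc3HBC, and the 7 without had -0.23. The 2 sets of values overlapped, from -0.57 to 0.03 with the letters and from -0.50 to 0.31 without.

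The mitotic kinases and checkpoint genes lay lowest. All 5 of PLK1, AURKA, AURKB, BUB1 and CDC20 were lower in every MsOc3HBC library than in any DMSO library, where 8.96% of all genes were. The median log2 fold change of the 5 was -0.32. Their median was -0.07 with HBC530 and -0.35 between the ligands. PLK1, the polo-like kinase that drives entry into mitosis and spindle assembly, stood at 271, 307 and 318 CPM in replicates 1 to 3 with DMSO, at 284, 289 and 279 CPM with HBC530 and at 196, 205 and 202 CPM with MsOc3HBC. DMSO and HBC530 overlapped, and MsOc3HBC lay below both. The log2 fold change of PLK1 was -0.57 ± 0.10 (SE) with MsOc3HBC, a level at 67.5% of DMSO, and the adjusted p was 0.0577 in edgeR's quasi-likelihood test. An adjusted p under 0.05 was reached in 7 of 16 alternative fits, over which it ran from 2.96e-05 to 0.474, and it was 0.0127 without MsOc3HBC replicate 3. With HBC530 the log2 fold change of PLK1 was -0.07 ± 0.09 (SE), with a 95% interval of -0.26 to 0.12.

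AURKA, the kinase of the spindle poles that activates PLK1, stood at 134, 123 and 120.4 CPM in replicates 1 to 3 with DMSO, at 119.7, 115 and 111 CPM with HBC530 and at 90.5, 99.7 and 100.3 CPM with MsOc3HBC. The 3 groups did not overlap, and they ranked from DMSO over HBC530 to MsOc3HBC. The log2 fold change of AURKA with MsOc3HBC was -0.38 ± 0.09 (SE) and with HBC530 -0.13 ± 0.08 (SE), with edgeR adjusted p = 0.202 and 0.751. CDC20, which loads substrates onto the anaphase-promoting complex, stood at 274, 291 and 300.1 CPM in replicates 1 to 3 with DMSO, at 293, 295 and 317 CPM with HBC530 and at 214, 216 and 260.1 CPM with MsOc3HBC. MsOc3HBC lay below both other groups, with replicate 3 the nearest to them. The log2 fold change of CDC20 with MsOc3HBC was -0.32 ± 0.10 (SE), with edgeR adjusted p = 0.329. Of 16 alternative fits, 1 gave an adjusted p under 0.05, the edgeR fit without MsOc3HBC replicate 3 (0.0228), and the highest was 0.952. AURKB, the kinase of the chromosomal passenger complex, had a log2 fold change of -0.23 with MsOc3HBC and 0.12 with HBC530. BUB1, a kinase of the spindle checkpoint, had -0.25 and -0.20.

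Cyclin B1 lay below DMSO in all MsOc3HBC libraries, and the values of its partner kinase CDK1 overlapped. CCNB1, the cyclin that turns on CDK1 at mitotic entry, stood at 294, 285 and 289 CPM in replicates 1 to 3 with DMSO, at 283, 271 and 294 CPM with HBC530 and at 224, 224 and 251 CPM with MsOc3HBC. The MsOc3HBC libraries lay below the other 6, and DMSO and HBC530 overlapped. The log2 fold change of CCNB1 was -0.31 ± 0.09 (SE) with MsOc3HBC, with edgeR adjusted p = 0.304. Of 16 alternative fits, 2 gave an adjusted p under 0.05, the lowest being 0.0259 without MsOc3HBC replicate 3, and the highest was 0.952. With HBC530 the log2 fold change of CCNB1 was -0.03 ± 0.08 (SE). CDK1 stood at 78.5, 68.0 and 71.1 CPM in replicates 1 to 3 with DMSO, at 71.2, 67.6 and 75.8 CPM with HBC530 and at 66.5, 72.1 and 83.8 CPM with MsOc3HBC. All groups overlapped, and its log2 fold change with MsOc3HBC was 0.03, with a 95% interval of -0.21 to 0.27. CCNA2, the cyclin of S phase and G2, stood at 137, 128 and 129 CPM in replicates 1 to 3 with DMSO, at 125, 121 and 113 CPM with HBC530 and at 102, 113 and 116 CPM with MsOc3HBC. Both ligand groups lay below DMSO, at a log2 fold change of -0.25 ± 0.09 (SE) with MsOc3HBC and -0.13 ± 0.08 (SE) with HBC530. CCNB2 had -0.14 with MsOc3HBC, and the phosphatases CDC25B and CDC25C, which activate CDK1, had -0.13 and -0.01. Part of CDC25C (9.62% of its exonic length) and of CCNA2 (9.08%) overlaps a gene on the other strand, and the strand setting of the counting is not given in the sources used here.

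Among the chromosome and spindle genes the values went both ways. KIF20A, a kinesin needed for cytokinesis, stood at 72.4, 67.8 and 67.3 CPM in replicates 1 to 3 with DMSO, at 61.6, 61.3 and 53.6 CPM with HBC530 and at 48.0, 51.5 and 46.6 CPM with MsOc3HBC. The 3 groups did not overlap, in the order DMSO, HBC530, MsOc3HBC. Its log2 fold change with MsOc3HBC was -0.50 ± 0.09 (SE), with edgeR adjusted p = 0.0728, and 6 of 16 alternative fits gave an adjusted p under 0.05, over a range from 0.000306 to 0.525 and with 0.0254 without MsOc3HBC replicate 3. With HBC530 it was -0.23 ± 0.09 (SE), with edgeR adjusted p = 0.751. KIF20A shares 3.34 and 1.72% of its exonic length with BRD8 and CDC23. HMMR, which binds spindle microtubules, had -0.32 with MsOc3HBC, and TPX2, which activates AURKA on the spindle, had -0.27. Both lay below DMSO in all 3 MsOc3HBC libraries.

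TOP2A, the topoisomerase that untangles sister chromatids, stood at 467, 426 and 381 CPM in replicates 1 to 3 with DMSO, at 396, 411 and 457 CPM with HBC530 and at 383, 401 and 413 CPM with MsOc3HBC. The groups overlapped, and the log2 fold change of TOP2A with MsOc3HBC was -0.09 (-0.31 to 0.14, 95% interval). MKI67, the gene of the Ki-67 proliferation marker, stood at 203, 225 and 193 CPM in replicates 1 to 3 with DMSO, at 169.6, 199 and 145 CPM with HBC530 and at 216, 208 and 115 CPM with MsOc3HBC. Replicate 3 was the lowest of its group with each ligand, and with MsOc3HBC it lay far below replicates 1 and 2. The log2 fold change of MKI67 was -0.27 ± 0.12 (SE) with HBC530 and -0.20 ± 0.19 (SE) with MsOc3HBC, and the MsOc3HBC value was 0.03 without replicate 3. CENPF, a large protein of the kinetochore, was also lowest in replicate 3 of both ligands (140 and 124 CPM). MKI67 and CENPF have the longest exons of the members, 12807 and 11690 bases. CENPE, at 9444 bases, was highest in replicate 3 of the HBC530 group (44 CPM). In the DMSO and MsOc3HBC groups its replicate 3 was the lowest (23.6 and 38.3 CPM). The part of transcript length in these values was not tested. After removal of GC and length trends, the log2 fold change over all replicates with MsOc3HBC was -0.18 for MKI67 and -0.07 for CENPF.

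The helicase genes lay slightly lower with MsOc3HBC. All 6 subunits of the MCM2-7 ring, which opens DNA at the replication fork, had a log2 fold change below 0, with a median of -0.16 and a range from -0.28 to -0.10. For 5 of the 6, and for 8.96% of all genes, the MsOc3HBC libraries lay below all DMSO libraries. The exception among the 6 was MCM7. MCM5 stood at 265, 329.5 and 338 CPM in replicates 1 to 3 with DMSO, at 312, 314 and 312 CPM with HBC530 and at 249.7, 262 and 253 CPM with MsOc3HBC. DMSO and HBC530 overlapped, with replicate 1 the lowest of the DMSO libraries, and its log2 fold change with MsOc3HBC was -0.28 ± 0.11 (SE). MCM2 stood at 457, 527 and 524 CPM in replicates 1 to 3 with DMSO, at 493, 497 and 413 CPM with HBC530 and at 415, 449 and 386 CPM with MsOc3HBC. Its MsOc3HBC libraries and HBC530 replicate 3 lay below DMSO, and its log2 fold change was -0.27 ± 0.10 (SE) with MsOc3HBC and -0.10 ± 0.10 (SE) with HBC530. With HBC530 the helicase median was -0.06, with 2 of 6 above 0.

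The licensing factors and the clamp had values near 0 with MsOc3HBC. CDC6, which loads the helicase onto origins, stood at 176, 175 and 166 CPM in replicates 1 to 3 with DMSO, at 164, 157 and 154 CPM with HBC530 and at 158, 169 and 174 CPM with MsOc3HBC. CDT1, its partner in loading, stood at 153, 201 and 210.4 CPM in replicates 1 to 3 with DMSO, at 194, 208 and 202 CPM with HBC530 and at 183, 179 and 199.9 CPM with MsOc3HBC, with DMSO replicate 1 the lowest of the 9. PCNA stood at 346, 350.5 and 349.7 CPM in replicates 1 to 3 with DMSO, at 325, 315 and 360.5 CPM with HBC530 and at 320.4, 311 and 409 CPM with MsOc3HBC. The groups of all 3 genes overlapped between MsOc3HBC and DMSO, and MsOc3HBC replicate 3 was the highest library for PCNA. With HBC530, CDC6 lay fully below DMSO (6.64% of genes did), at a log2 fold change of -0.12 (95% interval -0.30 to 0.05). CDT1, GINS2 and PCNA overlapped DMSO with HBC530, at 0.10, 0.07 and -0.06. The log2 fold changes with MsOc3HBC were -0.04 for CDC6 (95% interval -0.24 to 0.15), -0.01 for CDT1 (-0.28 to 0.27), 0.01 for GINS2 of the GINS complex (-0.26 to 0.29) and 0.00 for PCNA (-0.26 to 0.25).

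Of the genes that supply nucleotides, RRM2 lay lower with both ligands. RRM2, the regulated subunit of ribonucleotide reductase, stood at 306, 295 and 287 CPM in replicates 1 to 3 with DMSO, at 261, 253 and 241 CPM with HBC530 and at 229, 244 and 246 CPM with MsOc3HBC. Both ligand groups lay fully below DMSO and overlapped each other. The log2 fold change of RRM2 was -0.23 ± 0.08 (SE) with HBC530 and -0.30 ± 0.09 (SE) with MsOc3HBC, with edgeR adjusted p = 0.751 and 0.302, and it was below 0 in 16 of 16 alternative fits of each. RRM1, the other subunit, had -0.05 and -0.01. TYMS, thymidylate synthase, had -0.01 and -0.02, with 18.8% of its exonic length shared with ENOSF1. UNG, the uracil-DNA glycosylase, had -0.07 and 0.03, and MsOc3HBC replicate 3 was its highest library.

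E2F1 and cyclin E1 also had values near 0 with MsOc3HBC. E2F1, which activates the earlier wave and its own gene, stood at 90.4, 120.5 and 118 CPM in replicates 1 to 3 with DMSO, at 111, 116 and 128 CPM with HBC530 and at 107, 103 and 108 CPM with MsOc3HBC. DMSO replicate 1 was the lowest of the 9 libraries, and each ligand group overlapped DMSO. The MsOc3HBC libraries of E2F1 lay below its HBC530 libraries, at a log2 fold change of -0.16 between the ligands. CCNE1, the cyclin that starts S phase with CDK2, stood at 34.7, 35.1 and 34.7 CPM in replicates 1 to 3 with DMSO, at 35.7, 34.6 and 34.9 CPM with HBC530 and at 33.7, 34.9 and 35.6 CPM with MsOc3HBC. Its 9 libraries lay between 33.7 and 35.7 CPM, and its log2 fold change with MsOc3HBC was 0.00, with a 95% interval of -0.19 to 0.19. CDC25A, the phosphatase that activates CDK2, had -0.03 (-0.22 to 0.16), and E2F2 had -0.23 (-0.45 to -0.01).

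CCNE2, the second cyclin E, held the lowest value of HBC530 against DMSO. It stood at 16.5, 14.3 and 14.0 CPM in replicates 1 to 3 with DMSO, at 13.0, 11.2 and 9.49 CPM with HBC530 and at 11.3, 15.6 and 10.8 CPM with MsOc3HBC. HBC530 lay below DMSO, with replicate 3 the lowest, while MsOc3HBC replicate 2 lay among the DMSO libraries. Its log2 fold change was -0.41 ± 0.13 (SE) with HBC530 and -0.24 ± 0.14 (SE) with MsOc3HBC, with edgeR adjusted p = 0.751 and 0.559. Of its exonic length 37.0% overlaps INTS8 on the other strand, a gene with a mean of 3258 counts against 642 for CCNE2, so that some of these counts may belong to INTS8.

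The D-type cyclins, which link growth signals to CDK4 and CDK6, split with MsOc3HBC. CCND1 stood at 17.5, 15.8 and 16.3 CPM in replicates 1 to 3 with DMSO, at 15.0, 14.8 and 12.6 CPM with HBC530 and at 13.9, 13.7 and 11.5 CPM with MsOc3HBC. Both ligand groups lay below DMSO, and replicate 3 was the lowest of each. CCND2 stood at 34.4, 30.7 and 30.6 CPM in replicates 1 to 3 with DMSO, at 30.7, 32.7 and 28.5 CPM with HBC530 and at 39.3, 38.4 and 39.5 CPM with MsOc3HBC. With MsOc3HBC against DMSO it was the sole member above 0 at an unadjusted p under 0.05, and MsOc3HBC lay above the other 6 libraries. CCND3 stood at 68.7, 79.6 and 79.9 CPM in replicates 1 to 3 with DMSO, at 74.8, 77.4 and 73.0 CPM with HBC530 and at 61.3, 67.4 and 65.5 CPM with MsOc3HBC. Its MsOc3HBC libraries lay below all others. The log2 fold changes with MsOc3HBC were -0.33 ± 0.11 (SE) for CCND1, 0.30 ± 0.09 (SE) for CCND2 and -0.23 ± 0.10 (SE) for CCND3, with edgeR adjusted p = 0.331, 0.323 and 0.431. With HBC530 they were -0.22, -0.06 and -0.02. CCND2 was the more abundant of CCND1 and CCND2 per length, and CCND3 lay above both, at 13.1 ± 1.1 RPKM with DMSO. A stretch of 10.3% of the exonic length of CCND1 is shared with ORAOV1.

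**Figure D1:**
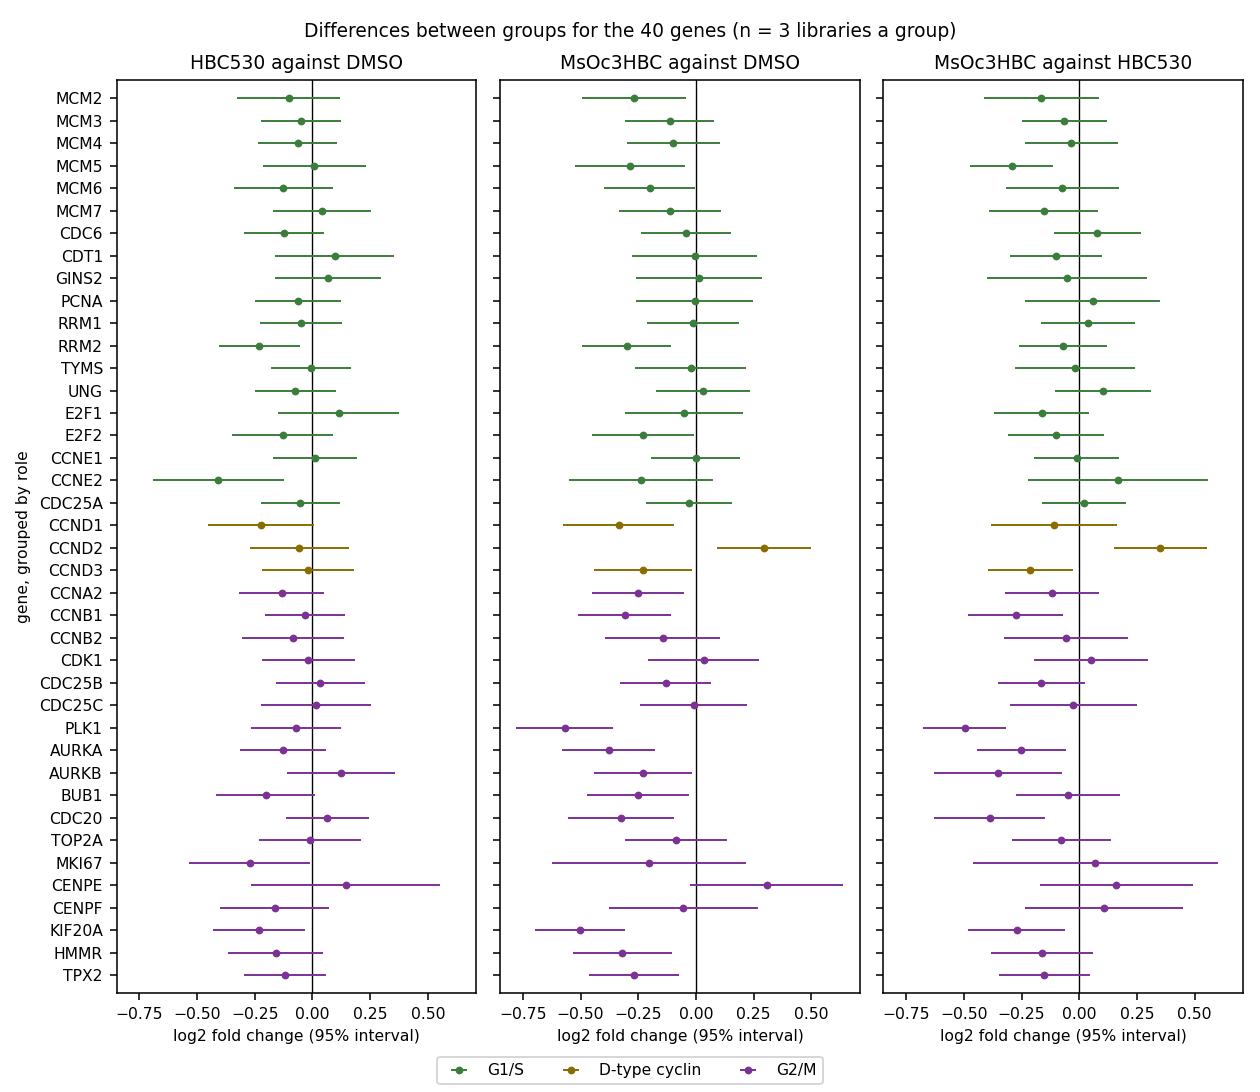
Log2 fold change with its 95% interval (edgeR, n = 3 libraries a group) for the 40 genes in the 3 comparisons, green for G1/S, brown for D-type cyclins and purple for G2/M. In the middle panel the intervals of PLK1, KIF20A and AURKA, among others, lie fully below 0 and that of CCND2 fully above, and the panel of HBC530 against DMSO holds no member with a value under -0.41.

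The ligands, given at the same dose and time, differ by the reactive handle of MsOc3HBC, and this pair was the one comparison of compounds. The labels number the replicates and state no pairing between groups. Same-numbered libraries of the ligands correlated in their deviations, at 0.167, 0.368 and 0.433, so the numbers were taken as pairs. MsOc3HBC replicate 2 and HBC530 replicate 1 also correlated, at 0.297. The fit with the replicate as a block rests on that choice and is given beside the unblocked one. Unblocked, no member passed an adjusted p of 0.05 by edgeR. With the block, 12 of 40 did, 11 lower with MsOc3HBC and 1 higher, where 6.9% of genes were lower and 4.54% higher. Of the 11 lower members, 7 were of the G2/M list, 3 were helicase subunits and 1 was CCND3. PLK1 had -0.50 ± 0.08 (SE, adjusted p = 0.525) without the block and -0.50 ± 0.05 (SE, adjusted p = 0.000106) with it. For CDC20 the blocked value was -0.39 ± 0.05 (SE, adjusted p = 0.0012) and for CCNB1 -0.28 ± 0.05 (SE, adjusted p = 0.00372). CCND2 was higher with MsOc3HBC by 0.35 ± 0.06 (SE, adjusted p = 0.00511), and MCM5 was lower at -0.29 ± 0.04 (SE, adjusted p = 0.00266), by edgeR with Benjamini-Hochberg adjustment in each case.

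The remaining members called with the block were AURKB (0.00243), KIF20A (0.00836), AURKA (0.0123), CCND3 (0.0184), MCM2 (0.0396), MCM7 (0.041) and TPX2 (0.0446), with the edgeR adjusted p in parentheses and blocked log2 fold changes from -0.35 to -0.15. Without replicate 3 of both ligands, 14 members, 11 of them lower with MsOc3HBC, were called in the unblocked fit, beside 9.16% of all genes. Members for which the ligands could not be told apart were bounded as well. For CCNE1 the difference between the ligands was -0.01 with a 95% interval of -0.19 to 0.17, for CDC25A 0.02 (-0.16 to 0.20), for RRM1 0.04 (-0.16 to 0.24) and for RRM2 -0.07 (-0.26 to 0.12). For MKI67 it was 0.07 with a wide interval of -0.46 to 0.60.

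A wider set of 154 genes of the same pathways, in 7 lists that hold no member, gave 0 calls by edgeR in each comparison. At an unadjusted p under 0.05 there were 9, 17 and 13 of the 153 tested for HBC530 against DMSO, MsOc3HBC against DMSO and MsOc3HBC against HBC530, beside 5.07, 10.9 and 7.32% of all genes, and DESeq2 called 0 in each. With the replicate as a block, edgeR called 12 of them higher and 20 lower with MsOc3HBC than with HBC530, beside 4.54% of all genes higher and 6.9% lower. With MsOc3HBC, 48 kinetochore, spindle and cytokinesis genes had a median log2 fold change of -0.15, with 39 below 0. At an unadjusted p under 0.05, 9 were lower and 2 higher, beside 4.78% of all genes lower and 6.12% higher. The 2 with the smallest p were PSRC1, a spindle protein, at -0.33 ± 0.10 (SE) and CCNF, the cyclin of a ubiquitin ligase, at -0.26 ± 0.09 (SE). Both were lower than with HBC530 too, at -0.36 and -0.31. The same list had a median of -0.08 with HBC530, led by TTK (-0.24) and NCAPG (-0.23).

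The replication lists lay near 0 with MsOc3HBC. The 19 genes of origin recognition and firing had a median of -0.03, the 28 of the fork and histone deposition -0.05 and the 12 of nucleotide synthesis -0.03. The 2 genes with the smallest p in the fork list were CLSPN, the fork protein claspin, at 0.37 ± 0.11 (SE) and RFC3 of the clamp loader at -0.19. In the origin list they were ORC6 (0.23) and TICRR (-0.28), and in the nucleotide list TK1 (-0.19) and DUT (0.21). With HBC530 the medians were -0.05, -0.03 and 0.02, and the leading genes were ORC4 (-0.17), TICRR (-0.23), UHRF1 (-0.24), RFC3 (-0.21), IMPDH2 (0.16) and SHMT2 (0.15). Between the ligands TK1, thymidine kinase, had -0.29, POLA2 -0.21, POLD1 -0.22, CAD -0.15, MCM8 0.17 and WDHD1 0.23.

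The brakes and regulators of the cycle gave no call in the unblocked edgeR fits. Their log2 fold changes ran from -0.46 to 0.34 over the 3 comparisons. In the list of CDKs, CDK inhibitors and checkpoint kinases, SKP2 (-0.19) and FBXW7 (0.20), both parts of ubiquitin ligases, led with MsOc3HBC, and CDKN1B (-0.25) and CDK6 (-0.32) with HBC530. CDKN1A, the p53 target that encodes p21, stood at 25.6, 27.0 and 25.6 CPM in replicates 1 to 3 with DMSO, at 28.2, 29.4 and 32.1 CPM with HBC530 and at 26.1, 28.1 and 30.8 CPM with MsOc3HBC. The HBC530 libraries lay above all DMSO libraries (7.17% of all genes did), and the MsOc3HBC libraries overlapped DMSO. The log2 fold change of CDKN1A was 0.20 ± 0.09 (SE) with HBC530 and 0.12 ± 0.10 (SE) with MsOc3HBC, with edgeR adjusted p = 0.751 and 0.674. Among RB, E2F, DREAM and MYC regulators, MYC had -0.25 ± 0.09 (SE) and LIN37 0.30 ± 0.12 (SE) with MsOc3HBC, and E2F7 -0.46 ± 0.16 (SE) and E2F3 -0.31 ± 0.12 (SE) with HBC530. Among 10 genes of quiescence and growth arrest, GAS1 had -0.34 ± 0.10 (SE) and FOXO1 -0.36 ± 0.12 (SE) with MsOc3HBC, and CCNG2 -0.30 ± 0.10 (SE) and SESN3 -0.27 ± 0.11 (SE) with HBC530. Between the ligands PKMYT1 (-0.20), CDKN1C (-0.36), MYC (-0.24), LIN37 (0.26), SESN3 (0.34) and CCNG2 (0.29) led these lists.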

How the data were processed

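RNA of HEK293T cells (DMSO, HBC530, MsOc3HBC, 3 biological replicates each) had been poly(A)-selected and sequenced in pairs. Per the labels and methods, the authors used Trimmomatic 0.36 for trimming, STAR 2.5.2b for alignment to GRCh38 and featureCounts of Subread 1.5.2 for unique hits per gene. The deposited files hold raw counts of 57500 genes per library. The annotation release, strand setting and counting of pairs are not given in the sources used here. The authors' 2 tables of DESeq2 fold changes and p-values served only to match gene names to IDs, and 12 columns of normalized values were not used. All 40 members and 154 pathway genes matched. The members and lists were chosen with earlier results of these data known.

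Genes were filtered with filterByExpr, scaled with TMM factors and compared 3 libraries against 3 with edgeR 4.0.16 (quasi-likelihood F test, Benjamini-Hochberg adjustment over all genes tested) in R 4.3.3. Library levels are counts scaled to the TMM-adjusted library total (CPM, with a prior count of 1 where on the log2 scale), and RPKM divides these by exonic length. Alternatives were DESeq2 1.42.0, limma-voom (limma 3.58.1), other scalings and filters, 1 fit of all 9 libraries, the replicate as a block, GC and length trends removed by splines with 5 degrees of freedom, and libraries left out. Deviations of libraries with the same number correlated at 0.167, 0.368 and 0.433 between the ligands (all over 0.1, so the numbers were taken as pairs, although MsOc3HBC replicate 2 and HBC530 replicate 1 also correlated, at 0.297), and between each ligand and DMSO they did not all pass 0.1. The fits were tested on simulated data, where the 95% intervals held the true value for 95.1 to 95.4% of genes. All 40 members may be named, with every library's value for a fixed set of 20 and for the 5 smallest p of each comparison. In each wider list the 2 genes with the smallest p were named where none was called. CDKN1A was named in addition to these. The p-values rest on the spread between 3 cultures a group.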

Additional observations from a re-analysis of the deposited data

Results flagged for a closer look

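The labels state no pairing between groups. Same-numbered libraries of the ligands were taken as pairs from correlations in these same data (0.167, 0.368 and 0.433), and an unlike pair reached 0.297. The difference between the effects of the 2 ligands was tested in 1 fit with the replicate as a block. In edgeR's quasi-likelihood test, 12 members passed an adjusted p of 0.05 with that block. Of all genes tested, 6.9% passed as lower with MsOc3HBC and 4.54% as higher. In that fit the log2 fold change of MsOc3HBC against HBC530 was -0.50 for PLK1, -0.39 for CDC20, -0.35 for AURKB, -0.29 for MCM5, -0.28 for CCNB1, 0.35 for CCND2, -0.27 for KIF20A, -0.25 for AURKA, -0.21 for CCND3, -0.16 for MCM2, -0.15 for MCM7 and -0.15 for TPX2. By edgeR none of the 12 passed without the block when all replicates were kept, and DESeq2 without the block called PLK1 and MCM5. With GC and length trends removed as well, PLK1, CDC20, AURKB, MCM5, CCNB1, CCND2, KIF20A, AURKA and TPX2 passed again, and CCND3, MCM2 and MCM7 did not. The groups of 3 libraries were too small for a search for single outlying values.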

How the results depend on the processing

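For HBC530 against DMSO, 0 members were called under all 16 alternatives, and its G2/M minus G1/S median ran from -0.042 to 0.018 over the fits without 1 library. The genes called in all are given in parentheses. For MsOc3HBC against DMSO the 0 members of edgeR (27) became 3 with DESeq2 (151), 2 with no filter on low counts (250), 1 with all 9 libraries in 1 fit (27), 2 with the replicate block (149), 3 with GC and length trends removed (66) and 3 with these and the replicate block (83), and 0 to 4 without 1 library (6 to 76). The 4 came without MsOc3HBC replicate 3 (76). Between the ligands the 0 members (0) became 2 with DESeq2 (55), 12 with the replicate block (1990), 10 with the block and GC and length trends removed (317) and 14 without replicate 3 of both ligands (1635), and stayed at 0 in each fit without 1 library. The median of the G1/S list for MsOc3HBC against DMSO ran from -0.14 to -0.036 without 1 library, and the G2/M minus G1/S median from -0.221 to -0.084. Between the ligands that difference was -0.162 with GC and length trends removed, -0.158 with the block as well, and -0.124 to -0.072 without 1 library. No log2 fold change of a member whose interval lay off 0 turned its sign. Same-numbered libraries of a ligand and DMSO correlated from -0.111 to 0.172, and the replicate block changed no other call. The fit without replicate 3 of both ligands equals that without 1 library where only 1 ligand enters. The cause of these shifts was not tested. Of changes of 0.5 on the log2 scale, set in genes drawn from all genes tested, the simulated fits recovered 8.2 to 40.2%.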
